A study of Mus musculus with 14 samples.

Results

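Gpr17, Enpp6, Bcas1, Bmp4, Neu4, Itpr2, Fyn and Tns3 are markers of committed premyelinating oligodendrocytes (OLs), the cells that have left the precursor state but do not yet wrap axons. These 8 genes were taken by symbol from the 23427 genes of an expression table in fragment counts scaled to transcript length and library size (FPKM). The table holds 14 RNA-seq libraries of mouse primary oligodendrocyte precursor cells (OPCs) of wild-type C57BL/6J mice, in 7 groups of 2 replicates. Cells were purified from the cortex of young pups by immunopanning, which captures cells on an antibody-coated dish, here with an antibody against PDGFRα. Day0 is the OPC culture before differentiation, which was started by withdrawing the growth factor PDGF-AA and adding the thyroid hormone T3, per the study's methods. The labels instead describe culture in medium with serum, and which applied to these libraries is not resolved. The other groups were collected at Day3. They were non-treated cells, cells given transfection reagent without siRNA (mock), cells given either of a pair of non-targeting siRNAs (NC siRNA #1 and NC siRNA #2), and the knockdowns of Secisbp2l (siSbp2l) and of Pdgfra (siPdgfra). Each knockdown is represented by a single siRNA label. The study lists several siRNAs against Sbp2l and does not state which of them these libraries received. Secisbp2l encodes Sbp2l, an RNA-binding protein of OLs, and Pdgfra encodes the PDGF-AA receptor of OPCs.

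OLs arise from dividing OPCs through a short-lived committed stage, in which the cell extends processes and switches on genes that are later lowered again as myelin proteins accumulate. Gpr17 is a G protein-coupled receptor that is switched on at commitment and holds back further maturation. Bmp4 is a secreted ligand of the bone morphogenetic protein (BMP) family, whose signal opposes OL maturation. Enpp6 is a choline phosphodiesterase that labels newly forming OLs, and Neu4 is a sialidase, an enzyme that removes sialic acid from glycans. Itpr2 is an IP3 receptor, a calcium release channel of the endoplasmic reticulum. Fyn is a Src family kinase that acts in process outgrowth and in local translation of Mbp mRNA. Tns3 is a tensin, an adaptor protein of focal adhesions, and Bcas1 is a cytoplasmic protein of OLs that are beginning to myelinate.

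Promoter sequence was matched in RefSeq (GRCm38.p6, the assembly of mm10) for 6 of the 8 members, not for Gpr17 and Bcas1. The 250 bases before each start site were searched on both strands for 3 motifs. The core recognised by TCF/LEF factors such as Tcf7l2 was written CTTTGA, the core recognised by SOX factors was written ACAAAG, and the E-box was written CAGCTG. The TCF/LEF letters and the reverse complement of the SOX letters differ in the last base, so a stretch cannot hold both at 1 position. Of 32851 promoters of this length, 13.8% held CTTTGA, 16.5% held ACAAAG and 13.0% held CAGCTG. The TCF/LEF letters were found in Neu4, 75 bases before the start, and in Fyn, 96 bases before it, and no other match lay in the 6 windows. The windows of Enpp6, Bmp4, Itpr2 and Tns3 held none of these letters. The windows are shown for Neu4 and Fyn, which hold the match (in capitals), and for Itpr2, which fell in both knockdowns, and Bmp4, whose libraries lay above all Day3 controls in both. They lie at chr1:94020243-94020492 on the plus strand (Neu4), chr10:39369549-39369798 on the plus strand (Fyn), chr6:146502224-146502473 on the minus strand (Itpr2) and chr14:46390670-46390919 on the minus strand (Bmp4), each written 5′ to 3′ towards the gene.
Neu4: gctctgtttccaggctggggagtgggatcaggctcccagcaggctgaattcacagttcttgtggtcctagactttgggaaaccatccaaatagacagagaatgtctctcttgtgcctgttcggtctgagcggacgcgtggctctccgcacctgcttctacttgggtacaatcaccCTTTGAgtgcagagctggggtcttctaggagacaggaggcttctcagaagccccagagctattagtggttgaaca
Fyn: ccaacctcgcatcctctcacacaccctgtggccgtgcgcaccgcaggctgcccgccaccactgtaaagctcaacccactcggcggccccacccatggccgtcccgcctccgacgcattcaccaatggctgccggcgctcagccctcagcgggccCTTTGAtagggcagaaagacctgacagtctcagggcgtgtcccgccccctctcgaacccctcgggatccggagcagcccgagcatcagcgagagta
Itpr2: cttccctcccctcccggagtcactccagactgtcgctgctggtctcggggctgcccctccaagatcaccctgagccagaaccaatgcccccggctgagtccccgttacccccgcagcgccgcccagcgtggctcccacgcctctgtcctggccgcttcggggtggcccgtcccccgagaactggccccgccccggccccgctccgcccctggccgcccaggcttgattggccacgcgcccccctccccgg
Bmp4: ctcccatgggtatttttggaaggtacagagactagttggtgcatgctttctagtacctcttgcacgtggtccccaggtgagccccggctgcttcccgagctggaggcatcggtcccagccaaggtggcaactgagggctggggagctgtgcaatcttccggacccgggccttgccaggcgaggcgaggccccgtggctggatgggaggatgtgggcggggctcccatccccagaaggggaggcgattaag
The GC content of the windows ran from 38.4% in Enpp6 to 74.4% in Itpr2, with 53.6% in Neu4 and 67.2% in Fyn. The RefSeq starts of Enpp6 and Bmp4 lie 38 and 70 bases before those in the deposited annotation. A match describes letters in a window and is not a measured binding site.

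The 8 genes lie on 8 different chromosomes. In the coordinates of the deposited annotation (mm10), Gpr17 spans chr18:31942999-31949636 on the minus strand, Enpp6 chr8:46986925-47094895 on the plus strand, and Bcas1 chr2:170346991-170427845 on the minus strand. Bmp4 spans chr14:46383520-46390599 on the minus strand, Neu4 chr1:94020493-94028330 on the plus strand, and Itpr2 chr6:146108299-146502223 on the minus strand. Fyn spans chr10:39369799-39565374 on the plus strand and Tns3 chr11:8431652-8664535 on the minus strand. Values are per gene and cover all annotated exons, so the 3 transcripts of Fyn were not separated.

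Library depth, recovered from the steps between low FPKM values, ran from 6560832 fragments (NC siRNA #2 replicate 2) to 31621282 (Day0 replicate 1). At these depths 3 fragments in a 2 kb transcript correspond to 0.0474 to 0.2286 FPKM, which covers counting error only. The non-treated pair stood apart from the other pairs. Its replicates differed by over 2-fold in 252 genes, against 7 to 21 genes in the other 6 pairs, and their difference tracked gene GC content (Spearman's rho = 0.77 across genes). The same rho was 0.50 for the Day0 pair, -0.45 for NC siRNA #1 and -0.06 to 0.18 for the other 4 pairs. Among the members, this pair was widest for Enpp6 (304 and 515 FPKM). Both knockdowns acted on their target. Secisbp2l was 3.91 and 3.82 FPKM in siSbp2l against 135 to 255 FPKM in the 8 Day3 control libraries, and Pdgfra was 3.30 and 2.69 FPKM in siPdgfra against 32.4 to 72.1 FPKM. The sources give 2 independent replicates of cultured cells per group and do not tie them to litters, so p-values measure the spread between these cultures.

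Gpr17, the receptor of the committed stage, was 57.7 and 47.3 FPKM at Day0, 229 and 192 in non-treated, 204 and 208 in mock, 173 and 175 in NC siRNA #1, 208 and 198 in NC siRNA #2, 87.8 and 99.5 in siSbp2l and 178 and 156 in siPdgfra. Both siSbp2l libraries lay below all 8 Day3 controls, whereas the siPdgfra libraries enclosed those of NC siRNA #1. The non-treated, mock and NC siRNA #2 libraries overlapped. Bmp4, the ligand, was 0.111 and 0.201 FPKM at Day0, 4.17 and 3.03 in non-treated, 4.82 and 4.68 in mock, 4.38 and 4.34 in NC siRNA #1, 4.91 and 4.20 in NC siRNA #2, 5.86 and 5.96 in siSbp2l and 8.22 and 9.23 in siPdgfra. It was the least abundant member at every Day3 control, and the one member for which both knockdowns lay above all 8 controls. Its Day0 values rested on an estimated 7 and 9 fragments. Among the controls, NC siRNA #2 enclosed NC siRNA #1 and mock, which did not overlap each other, and non-treated lay lower.

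Enpp6, the choline phosphodiesterase, was 0.660 and 0.609 FPKM at Day0, 304 and 515 in non-treated, 315 and 309 in mock, 203 and 213 in NC siRNA #1, 175 and 191 in NC siRNA #2, 86.1 and 99.5 in siSbp2l and 115 and 106 in siPdgfra. All 4 knockdown libraries lay below all 8 controls, and the libraries with a non-targeting siRNA lay below those without siRNA. Neu4, the sialidase, was 0.702 and 0.562 FPKM at Day0, 12.2 and 9.47 in non-treated, 14.8 and 13.4 in mock, 8.50 and 8.83 in NC siRNA #1, 19.3 and 20.7 in NC siRNA #2, 3.10 and 3.48 in siSbp2l and 5.72 and 6.09 in siPdgfra. No 2 groups overlapped, and the highest and the lowest control were the 2 non-targeting siRNAs.

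Itpr2, the calcium release channel, was 2.46 and 2.49 FPKM at Day0, 28.1 and 34.2 in non-treated, 30.5 and 29.1 in mock, 11.5 and 10.9 in NC siRNA #1, 21.7 and 19.7 in NC siRNA #2, 8.19 and 8.59 in siSbp2l and 3.53 and 3.52 in siPdgfra. Non-treated and mock overlapped, and the siPdgfra level stood nearer to Day0 than to any other Day3 group. Fyn, the kinase, was 145 and 145 FPKM at Day0, 491 and 461 in non-treated, 451 and 437 in mock, 235 and 238 in NC siRNA #1, 338 and 316 in NC siRNA #2, 242 and 233 in siSbp2l and 181 and 189 in siPdgfra. The groups of Fyn fell in nearly the same order as those of Itpr2, except that siSbp2l and NC siRNA #1 overlapped. Tns3, the adaptor, was 13.1 and 12.4 FPKM at Day0, 147 and 138 in non-treated, 160 and 166 in mock, 193 and 193 in NC siRNA #1, 153 and 152 in NC siRNA #2, 97.7 and 109 in siSbp2l and 109 and 98.5 in siPdgfra. Here NC siRNA #1 was the highest group, and the knockdowns overlapped each other below all controls.

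Bcas1 was the most abundant member per length in all 14 libraries. It was 263 and 274 FPKM at Day0, 1835 and 1465 in non-treated, 1905 and 1805 in mock, 848 and 802 in NC siRNA #1, 1504 and 1291 in NC siRNA #2, 740 and 682 in siSbp2l and 745 and 914 in siPdgfra. The siPdgfra libraries enclosed those of NC siRNA #1, the siSbp2l libraries lay just below them, and non-treated overlapped with mock and with NC siRNA #2. In all 4 control groups at Day3 the 8 genes ranked from Bcas1 at the top to Bmp4 at the bottom, so that equal fold changes stood for FPKM differences of very unequal size.

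**Figure D1:**
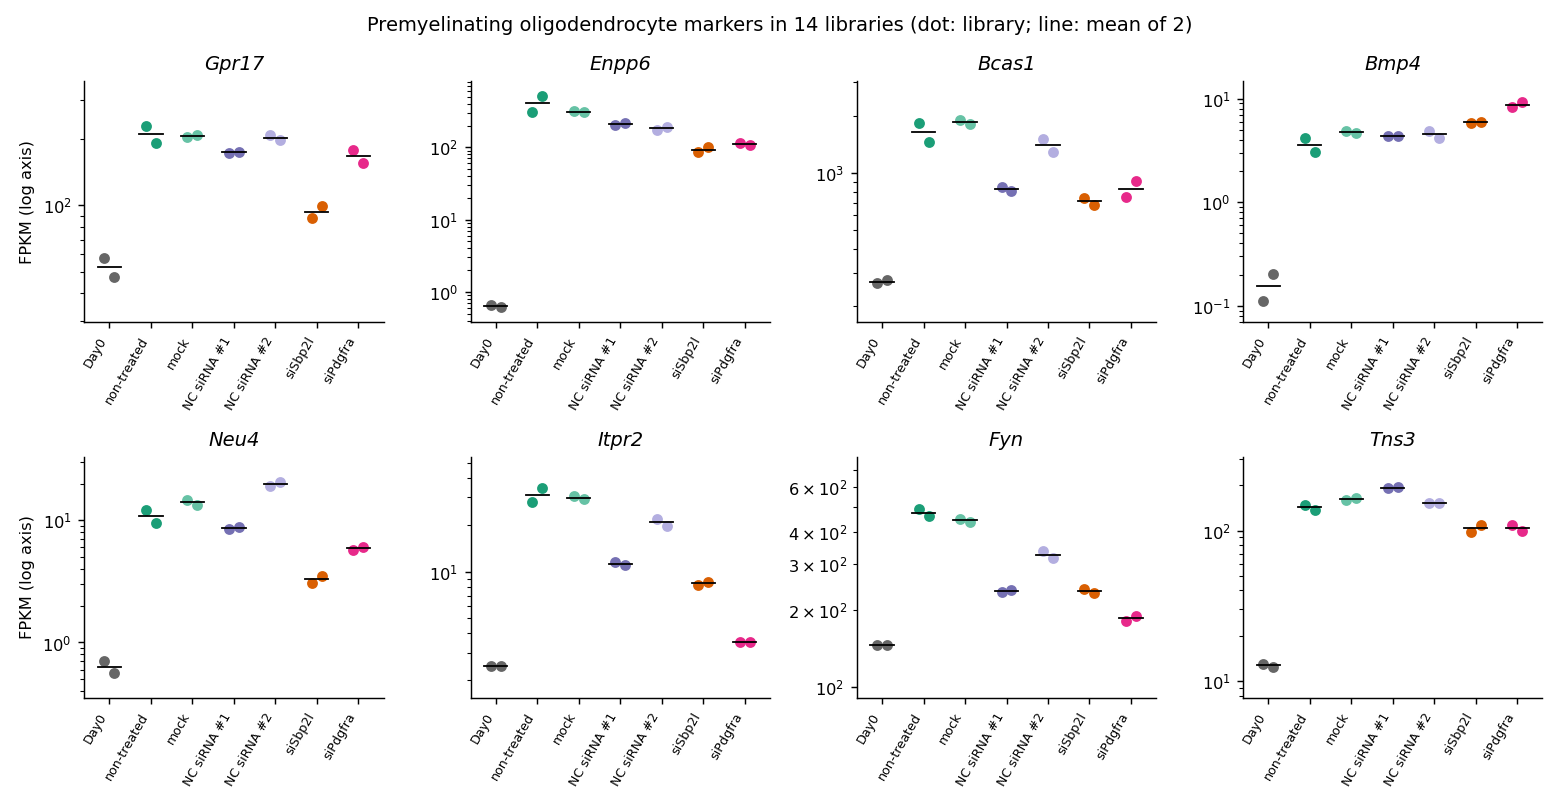
FPKM (log axis) of the 8 premyelinating OL markers in each of the 14 libraries, by group. Dots are libraries and lines are the mean of 2. All 8 genes are lowest at Day0, and Bmp4 is the one gene that is highest in the knockdowns.

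All 8 members rose between Day0 and Day3 in non-treated cells. The question here is whether the culture passes through the premyelinating stage, and the test was limma on log2(FPKM + 1) over all genes, with a call at a fold change of at least 2 and a Benjamini-Hochberg adjusted p under 0.05. Of the 11874 genes tested, 11.4% were called higher and 15.2% lower in non-treated cells. Enpp6 rose most, by 7.92 on the log2 scale (SE 0.19, limma adjusted p = 1.01e-10). Tns3 followed with 3.38, Itpr2 with 3.20, Neu4 with 2.85 and Bcas1 with 2.61. Gpr17 (1.99), Bmp4 (1.98) and Fyn (1.70, SE 0.09, adjusted p = 1.44e-08) rose least. In mock cells all 8 members were again called higher, against 12.2% of genes, with log2 changes from 1.61 in Fyn to 7.58 in Enpp6. The pseudocount of 1 understates the change of Bmp4. In plain FPKM the mean of the 4 control groups was 27.7 times the Day0 mean for Bmp4, 438 times for Enpp6, 21.2 times for Neu4 and 2.55 times for Fyn.

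The members did not start from the same point. At Day0 Gpr17, Bcas1, Fyn, Tns3 and Itpr2 had a mean of at least 1 FPKM, and Enpp6, Bmp4 and Neu4 had less. All 8 were detected at Day0, and Bcas1 and Fyn were well up the order of abundance there, at ranks 189 to 200 and 436 to 440. At Day3 Bcas1 was among the 25 most abundant genes in all 8 control libraries, at ranks 7 to 25. In bulk RNA, fewer cells of a stage and less RNA of a gene per cell cannot be told apart, which holds for every comparison here.

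In siSbp2l, 4 of the 8 members fell against the mean of the 4 Day3 control groups, namely Neu4, Enpp6, Itpr2 and Gpr17. This comparison asks what loss of Sbp2l does to the markers, with 4.08% of the 11650 genes tested called lower and 3.12% called higher. Neu4 fell by 1.68 on the log2 scale (SE 0.10, limma adjusted p = 6.75e-07), to 24.5% of the control FPKM. Enpp6 fell by 1.49 (SE 0.16, adjusted p = 3.78e-05), to 33.3%. Itpr2 fell by 1.27 (SE 0.09, adjusted p = 1.71e-06), to 36.2%. Gpr17 fell by 1.07 (SE 0.09, adjusted p = 9.17e-06), to 47.2%. Bcas1 had a log2 change of -0.94 (adjusted p = 0.000115), just short of 2-fold. Tns3 had -0.64 (adjusted p = 8.02e-05) and Fyn -0.59 (adjusted p = 0.000113), and Bmp4 had 0.39 (SE 0.10, adjusted p = 0.00988). By adjusted p alone 7 members were lower, against 17.9% of genes, and 1 was higher, against 35.5%.

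The size and the number of these differences depended on the control. Against non-treated cells 6 members were lower in siSbp2l (Bcas1, Enpp6, Fyn, Gpr17, Itpr2 and Neu4, with 4.95% of genes called lower). Against mock 5 were lower (the same without Fyn, 4.76% of genes). Against NC siRNA #2 3 were lower (Gpr17, Itpr2 and Neu4, 4.30% of genes) and against NC siRNA #1 2 were lower (Enpp6 and Neu4, 5.28% of genes). Neu4 alone was called against each of the 4 control groups, where 2.03% of genes were called lower, with log2 differences from -1.17 against NC siRNA #1 to -2.29 against NC siRNA #2. That count was 3 with median-ratio scaling, 2 with upper-quartile scaling, 2 without NC siRNA #2 replicate 1 or siSbp2l replicate 2, and 0 with a pseudocount of 5. Enpp6 missed the fold threshold against NC siRNA #2 (-0.97) and Gpr17 missed it against NC siRNA #1 (-0.89). Fyn in siSbp2l stood at the level of NC siRNA #1 (log2 difference 0.00, 95% interval -0.21 to 0.22), and Bcas1 was -0.22 from it (interval -0.55 to 0.12, adjusted p = 0.264).

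With the deposited scaling the median log2 difference of all genes in siSbp2l was 0.15, and it was 0.00 after median-ratio scaling and 0.04 after upper-quartile scaling. Relative to that shift the 7 lower members stood lower still. Bcas1 then passed 2-fold (-1.11 and -1.07), and Bmp4 in siSbp2l was 0.25 (adjusted p = 0.0544) and 0.28 (adjusted p = 0.0384), and its adjusted p ran from 0.000325 to 0.0790 over the alternatives. Without siSbp2l replicate 1 the count of 4 was kept, but by Bcas1 (-1.0) in place of Gpr17 (-0.98). Leaving the non-treated group out of the controls gave 4 members again.

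**Figure D2:**
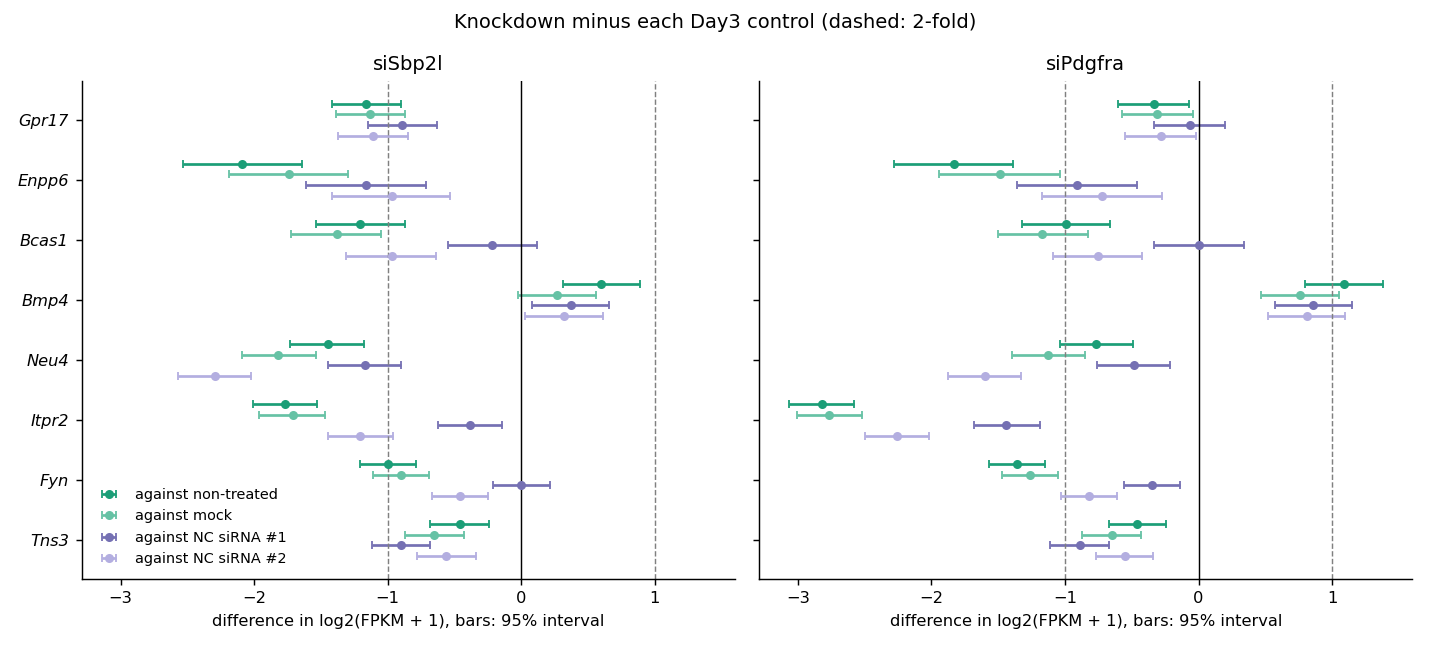
Difference in log2(FPKM + 1) of each marker between a knockdown (left siSbp2l, right siPdgfra) and each of the 4 Day3 control groups. Points are limma estimates from 2 libraries per group, bars are 95% intervals, and dashed lines mark 2-fold. Neu4 in siSbp2l and Itpr2 in siPdgfra lie beyond 2-fold against all 4 controls.

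In siPdgfra 2 of the 8 members fell against the mean of the same 4 control groups, namely Itpr2 and Enpp6, with 4.03% of genes called lower and 3.97% called higher. The PDGF receptor holds OPCs in the dividing state, so this arm shows the markers when that receptor is lowered. Itpr2 fell by 2.32 on the log2 scale (SE 0.09, limma adjusted p = 7.48e-08), to 15.2% of the control FPKM. Only 15 of the 11650 genes tested had a lower log2 difference than Itpr2. Enpp6 fell by 1.24 (SE 0.16, adjusted p = 0.000126), to 39.7%. Neu4 was at the threshold, with -1.0 (fold 1.99, adjusted p = 1.93e-05), and Fyn close to it with -0.95 (adjusted p = 4.53e-06). Bcas1 had -0.73 (adjusted p = 0.000587) and Tns3 -0.64 (adjusted p = 8.28e-05). Bmp4 had 0.88 (SE 0.10, adjusted p = 6.69e-05), which was 202% of the control FPKM. Gpr17 was the member nearest to its controls, with -0.25 (95% interval -0.45 to -0.04, adjusted p = 0.0452), and its adjusted p ran from 0.00257 to 0.348 over the alternatives, the highest without siPdgfra replicate 2. By adjusted p alone 7 members were lower, against 23.0% of genes, and 1 was higher, against 32.4%.

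Against single controls, siPdgfra had 5 members called lower relative to mock (Bcas1, Enpp6, Fyn, Itpr2 and Neu4, with 4.69% of genes called lower). Relative to non-treated cells 3 were lower (Enpp6, Fyn and Itpr2, 4.82% of genes) and Bmp4 was higher, by 1.09 (6.15% of genes). Relative to NC siRNA #2 2 were lower (Itpr2 and Neu4, 5.12% of genes), and relative to NC siRNA #1 1 was lower (Itpr2, 4.67% of genes). Itpr2 alone was called lower against all 4 groups, where 1.84% of genes were, with log2 differences from -1.44 against NC siRNA #1 to -2.82 against non-treated cells, and with a pseudocount of 5 the count was 0. Bcas1 in siPdgfra did not differ from NC siRNA #1 beyond the spread (0.00, 95% interval -0.33 to 0.34), and Gpr17 was -0.06 from it (interval -0.33 to 0.20). With median-ratio and upper-quartile scaling Neu4 and Fyn also passed 2-fold, and without the non-treated group Neu4 did (-1.07).

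**Figure D3:**
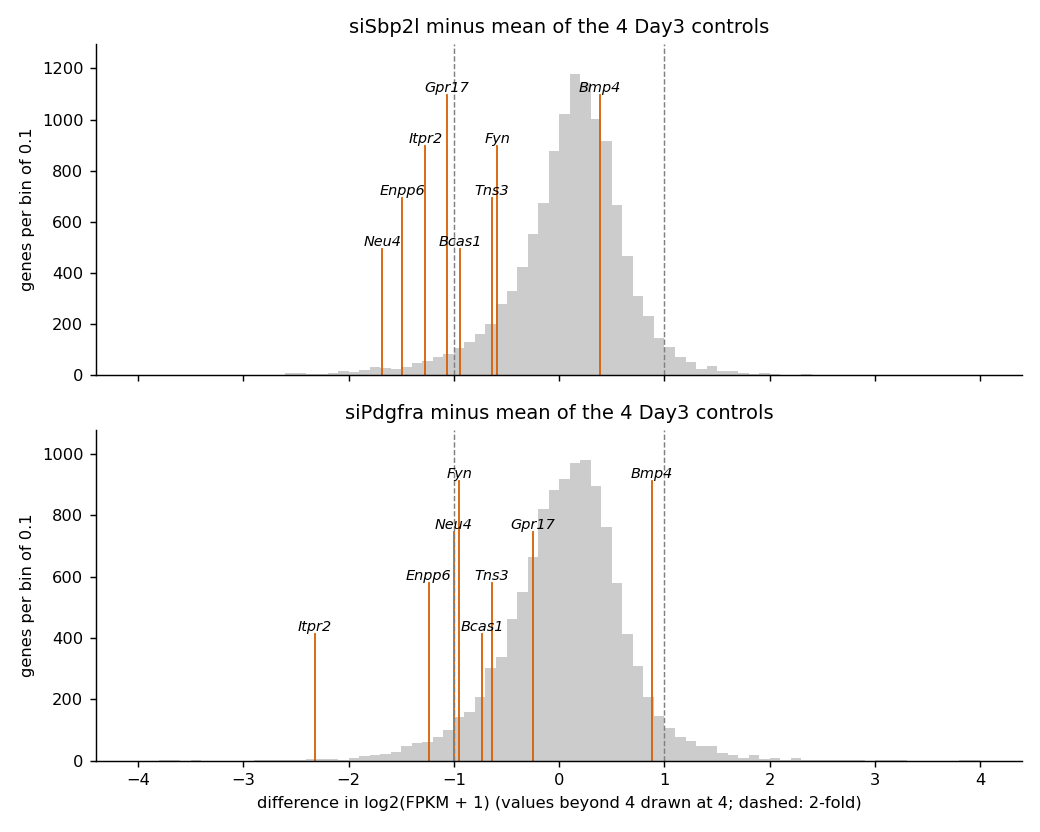
Distribution of the difference in log2(FPKM + 1) between each knockdown and the mean of the 4 Day3 controls over the 11650 genes tested (grey, genes per bin of 0.1), with the 8 markers as labelled lines and 2-fold as dashed lines. In siSbp2l 7 markers lie to the left of most genes, and in siPdgfra Itpr2 is set apart from the other markers while Gpr17 lies inside the bulk.

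The knockdowns were also compared with each other, which needs no control group. Itpr2 was called higher in siSbp2l than in siPdgfra, by 1.05 (SE 0.11, limma adjusted p = 2.82e-05), with 6.94% of genes called higher. By adjusted p alone 2 members were higher in siSbp2l, against 28.5% of genes, and 3 were lower, against 23.4%. Fyn was the other higher member (0.36, adjusted p = 0.00967). Gpr17 (-0.83, adjusted p = 0.000238), Neu4 (-0.69, adjusted p = 0.000989) and Bmp4 (-0.49, adjusted p = 0.00985) were lower in siSbp2l. No difference was resolved for Enpp6 (-0.25, 95% interval -0.70 to 0.20), Bcas1 (-0.22, -0.55 to 0.12) or Tns3 (-0.01, -0.23 to 0.21). The Itpr2 call was lost after median-ratio scaling (0.97) and with a pseudocount of 5 (0.65).

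Neither knockdown held the members at the Day0 level. Against Day0, 6 of the 8 were called higher in siSbp2l (12.1% of genes) and 6 in siPdgfra (13.9% of genes). In siSbp2l the 2 that missed 2-fold were Gpr17 (0.83, limma adjusted p = 0.000143) and Fyn (0.70, adjusted p = 2.91e-05). In siPdgfra they were Itpr2 (0.38, adjusted p = 0.00634) and Fyn (0.35, adjusted p = 0.00428). Enpp6 rose by 5.84 in siSbp2l and 6.09 in siPdgfra, and Tns3 by 2.92 and 2.93. Bmp4 rose by 2.58 and 3.07, beside 1.98 in non-treated and 2.32 in mock cells. These comparisons share the Day0 libraries with those of the non-treated and mock cells.

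The control groups differed among themselves in several members. Between the non-targeting siRNAs, Neu4 was called lower in NC siRNA #1 than in NC siRNA #2, by 1.12 on the log2 scale (limma adjusted p = 0.00014), with 1.63% of genes called lower. By adjusted p alone 4 members were lower in NC siRNA #1, against 10.8% of genes, namely Neu4, Itpr2 (-0.82), Bcas1 (-0.76) and Fyn (-0.47). Tns3 was higher (0.34, adjusted p = 0.0342), against 10.1% of genes. When both non-targeting siRNAs were set against non-treated and mock cells, limma called 0 members, with 0.807% of genes called lower, while 5 members had an unadjusted p under 0.05. By adjusted p alone 4 members were lower with a non-targeting siRNA, against 11.8% of genes, namely Itpr2 (-0.95, adjusted p = 2.78e-05), Enpp6 (-0.85, adjusted p = 0.00178), Fyn (-0.72, adjusted p = 5.96e-05) and Bcas1 (-0.70, adjusted p = 0.00102). Without non-treated replicate 1, Enpp6 (-1.04) and Itpr2 (-1.02) passed 2-fold in this comparison. The control group means spanned 2.77-fold in Itpr2, 2.31-fold in Neu4, 2.25-fold in Bcas1, 2.24-fold in Enpp6 and 2.01-fold in Fyn, but 1.21-fold in Gpr17, 1.32-fold in Bmp4 and 1.35-fold in Tns3. Gpr17 was therefore the member with the steadiest controls.

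The 8 members were set beside lists of the stages before and after them. Of 23 measured genes on the list of other newly formed OL markers, 21 rose in non-treated cells against Day0 (11.4% of all genes). In siSbp2l 13 fell (4.08% of all genes) and 0 rose (3.12%). The median log2 difference there was -1.17, against -1.01 for the members and 0.15 for all genes. Slc12a2, a sodium, potassium and chloride cotransporter, had -2.55, Sirt2, a deacetylase of the myelin sheath, -2.51, and 1810041L15Rik -2.32. In siPdgfra 6 of the 23 fell (4.03% of all genes), with a median of -0.28 against -0.84 for the members. Pik3r3, a regulatory subunit of PI3 kinase, had -1.99, and Chn2, a Rac GTPase-activating protein, and Slc12a2 each had -1.65. Nfasc (4.92), an adhesion protein of axon contacts, Sirt2 (5.39) and 9630013A20Rik (5.05) rose most from Day0 to non-treated Day3.

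Of 11 measured OPC markers, 7 fell in non-treated cells against Day0, among them Cspg4, the NG2 proteoglycan (-2.94), Pdgfra (-2.63) and Pcdh15, a protocadherin (-2.60), while Lhfpl3 rose (1.55). Over all genes 15.2% were called lower and 11.4% higher. In siSbp2l 3 of the 11 rose (3.12% of all genes), namely Pdgfra (1.54), Vcan, the matrix proteoglycan versican (1.43), and Cacng4, an AMPA receptor auxiliary subunit (1.32), and the list median was 0.68. In siPdgfra 3 fell (4.03% of all genes), among them Lhfpl3 (-2.01) and Pdgfra (-3.68). Pdgfra is the target of this siRNA, so its own fall says nothing about the list. The list median, which includes Pdgfra, was -0.41. OPC markers and premyelinating markers thus had medians of opposite sign in siSbp2l and of the same sign in siPdgfra.

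Of 14 measured mature myelin markers, 12 rose in non-treated cells against Day0 (11.4% of all genes), led by Mag (7.99), Mbp (7.12) and Mog (5.24), which are proteins of the myelin sheath. In siSbp2l 6 fell (4.08% of all genes), among them Mog (-2.55) and Mag (-2.48), and Mal rose (1.29, with 3.12% of all genes called higher). Mog was 3.83 FPKM in siSbp2l, close to the 5.34 of NC siRNA #2, and 36.3 to 65.8 in the other control groups. Mag was 55.7 FPKM in siSbp2l, 136 in NC siRNA #2 and 411 to 431 in the other control groups. In siPdgfra 1 fell (Mag, -2.38) and 2 rose (Apod, 2.49, a lipid carrier, and Ermn, 1.07, a cytoskeletal protein of late OLs). Over all genes 4.03% were called lower and 3.97% higher, and 1 fall in 14 is near that share. Apod was 26.4 FPKM in siPdgfra, 23.6 in NC siRNA #1 and 0.968 to 2.47 in the other control groups. Ermn was 5.96 FPKM in siPdgfra, which is below the 13.8 of NC siRNA #1 and above the 0.307 to 1.65 of the other controls. Between the non-targeting siRNAs 8 of the 14 were higher in NC siRNA #1 (2.36% of genes) and 0 were lower, with a median of 1.42, whereas the median of the 8 premyelinating markers was -0.34. Mobp, a late myelin protein, was 102 FPKM in NC siRNA #1 and 5.49 FPKM in NC siRNA #2. As medians against Day0, the premyelinating markers stood at 2.73 in non-treated, 2.96 in mock, 2.02 in NC siRNA #1, 2.50 in NC siRNA #2, 1.42 in siSbp2l and 1.87 in siPdgfra. The mature myelin markers stood at 2.78, 2.72, 2.95, 2.54, 1.96 and 2.70 in the same groups. Their medians were close in non-treated cells and NC siRNA #2 and furthest apart in NC siRNA #1.

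**Figure D4:**
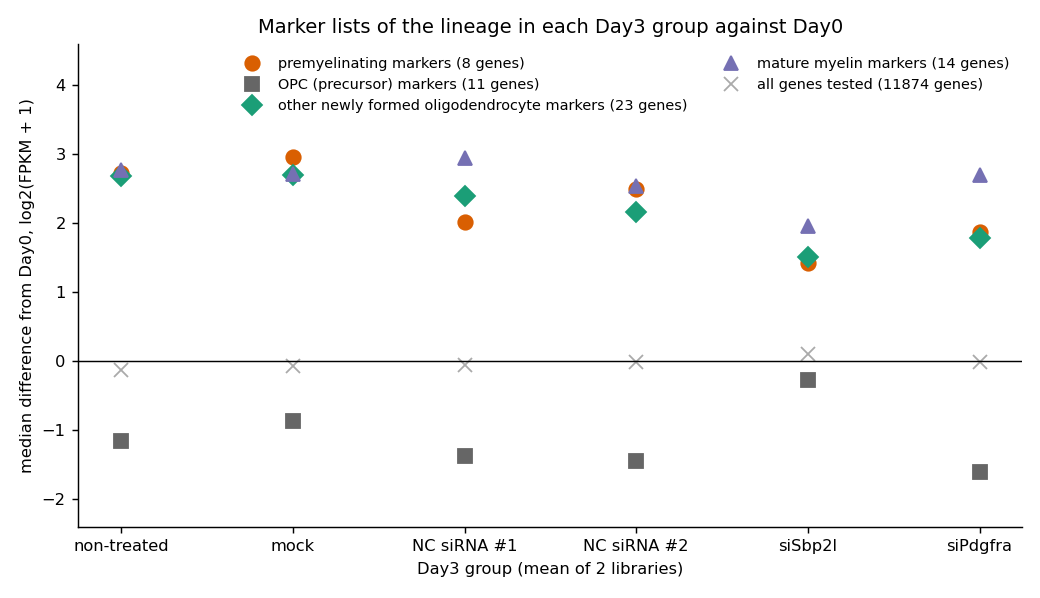
Median difference from Day0 in log2(FPKM + 1) of the premyelinating markers, 3 other lineage lists and all genes tested, in each Day3 group (mean of 2 libraries). The premyelinating markers are lowest in siSbp2l (1.42), and they lie furthest below the mature myelin markers in NC siRNA #1 (2.02 against 2.95).

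Around Bmp4, 16 of 25 genes of the BMP pathway passed the filter on low values. In siSbp2l Id2, a BMP target that blocks differentiation factors, rose by 1.77 and Smad7, an inhibitory Smad, fell by 1.33, and the other 14 were not called. Over all genes 3.12% were called higher and 4.08% lower, so 1 call each way in 16 is near these shares. In siPdgfra the ligand Bmp2 rose by 2.22, from group means of 0.430 to 0.976 FPKM in the controls to 6.54 FPKM. The receptor Acvr2b (1.19) and the secreted antagonist Nog (1.06) also rose, and the receptor Bmpr1a fell by 1.04. These were 3 rises and 1 fall among 16 genes, with 3.97% of all genes called higher and 4.03% lower. The list medians were 0.57 in siSbp2l and 0.08 in siPdgfra, against 0.15 and 0.09 for all genes. From Day0 to non-treated Day3 Smad7 (3.40) and Id4 (1.87) rose and Bmp7 (-3.16) and Id2 (-1.33) fell. These 2 rises and 2 falls among 16 genes are near the shares over all genes (11.4% higher and 15.2% lower).

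Around Fyn, 11 Src family members and Fyn partners were measured at Day3, and limma called 0 of them in either knockdown, with list medians of 0.10 in siSbp2l and 0.12 in siPdgfra. Over all genes tested, 3.12% were called higher and 4.08% lower in siSbp2l, and 3.97% and 4.03% in siPdgfra. A count of 0 in 11 is near these shares and does not set the list apart. From Day0 to non-treated Day3 Mapt, the microtubule protein tau that binds Fyn, rose by 1.58, and Cntn1, an adhesion protein that acts through Fyn (-1.86), and Lyn, another Src family kinase (-1.39), fell. Around Itpr2, limma called 0 of 6 measured genes of store calcium release and refilling in either knockdown, which is also near the shares over all genes. At Day3 the sister channel Itpr1 was 0.262 to 0.548 FPKM in the control groups and Itpr3 0.00800 to 0.0575 FPKM, so Itpr2 was the most abundant IP3 receptor there. Itpr1 fell by 1.69 and Stim1, the calcium sensor of the store, rose by 2.35 from Day0 to non-treated Day3.

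Among 11 paralogs of the members measured at Day3, Tns1, the sister gene of Tns3, fell by 1.01 in siSbp2l and by 1.46 in siPdgfra. Tns1 was 1.68 FPKM in siSbp2l and 0.97 FPKM in siPdgfra. Its control means were 2.23 FPKM in NC siRNA #2 and 4.89 to 5.86 FPKM in the other control groups, so the size of the fall depended on the control. Bmp2 was the other call in siPdgfra, and no other paralog was called in siSbp2l. Over all genes 4.08% were called lower in siSbp2l, and 3.97% higher and 4.03% lower in siPdgfra. Counts of 1 in 11 are near these shares and do not set the paralogs apart. From Day0 to non-treated Day3, 5 of 12 measured paralogs rose (11.4% of all genes) and 4 fell (15.2% of all genes). Tns1 (2.66), Enpp2, which makes lysophosphatidic acid (2.02), and Neu1, the lysosomal sialidase (1.67), were among those that rose, and Bmp7 (-3.16), Itpr1 (-1.69) and Lyn (-1.39) fell while Bmp4, Itpr2 and Fyn rose. Neu2 was listed at 0 in all libraries, as was Cysltr1, a relative of Gpr17.

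Markers of other cell types were read in the same libraries. Of 7 astrocyte genes 5 were measured, and 4 of the 5 were lower in siPdgfra (4.03% of all genes), among them Aldoc (-1.81), Slc1a3 (-1.55) and Gfap (-1.46). The summed astrocyte list was 47.8 to 48.9 FPKM in siPdgfra, 125 to 132 in siSbp2l, 103 to 177 in the controls and 66.9 to 69.3 at Day0, with Gja1 at 0.0317 FPKM or less in every group mean. The summed list of 8 neuron genes was 201 to 202 FPKM in siSbp2l, 238 to 242 in siPdgfra, 269.9 to 277 in NC siRNA #1, 48.4 to 128 in the other controls and 29.8 to 31.9 at Day0. Most of it was Tubb3, a tubulin, while Stmn2 and Slc17a7 were at 0.0509 FPKM or less in every group mean, and Syt1, a synaptic vesicle protein, rose in siSbp2l (1.72) and siPdgfra (1.64). Of the 8 microglia genes P2ry12 alone passed the filter and was higher in siPdgfra (1.08), at 7.07 FPKM against 1.19 to 9.12 FPKM in the controls, while C1qb was at 0 throughout. Endothelial genes summed to at most 1.93 FPKM, with Cldn5 and Cdh5 at 0, and mesenchymal and mural genes to at most 0.190 FPKM. The part of these cell types in the members' differences was not tested.

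Over the 14 libraries the 28 pairs of members had Pearson's r from 0.33 to 0.98 on log2(FPKM + 1), with a median of 0.82. These values are descriptions, since the libraries share their group and all pairs share the Day0 to Day3 step. Within the 12 Day3 libraries r ran from -0.86 to 0.96, with a median of 0.64. The 7 values below 0 were the 7 pairs of Bmp4, from -0.40 with Gpr17 to -0.86 with Itpr2. Itpr2 and Fyn were the closest pair (0.96), followed by Bcas1 and Fyn (0.92), and among the pairs without Bmp4 the lowest were Tns3 with Bcas1 (0.43) and with Fyn (0.44).

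Among 10344 other genes ranked by r over the 14 libraries, the patterns most like Gpr17 were those of Tmem108 (0.989), Cerk (0.988) and Sirt2 (0.988), of which Tmem108 and Sirt2 were also on the list of newly formed OL markers. For Enpp6 they were Klf9 (0.991), Rasgef1b (0.991) and Sft2d3 (0.990), and for Tns3 Plxnb3 (0.993), Nipal3 (0.992) and Hey1 (0.990). Those of Neu4 included Rnd2 (0.975) and Mink1 (0.973), and those of Bcas1 included Ctsl (0.977) and Fn3k (0.977). For Bmp4 they were Mkrn1 (0.986), Matn2 (0.984) and Tmeff2 (0.983). Pik3r3 was among the closest genes of both Itpr2 (0.971, after Erp27 with 0.975 and Pld2 with 0.974) and Fyn (0.964, before Dynll1 with 0.954 and 1700047M11Rik with 0.952).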

How the data were processed

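Stranded mRNA libraries were made with a TruSeq kit and sequenced as paired ends. The authors processed the reads in OmicSoft ArrayStudio against mm10 and tested genes with DESeq2. The submitters' processing notes name DESeq version 2. The version of ArrayStudio and the strand setting of its counting are not given in the sources used here. The deposited expression table holds FPKM values as made by the authors, although it is named as counts. A second deposited table holds the authors' fold changes, p-values and adjusted p-values for their own comparisons, which were not used, beside gene positions and exon lengths, which were. Columns were matched to samples by name. The columns that name Day3 and no treatment were taken as non-treated, as the labels hold no other such Day3 group, and 1 column with a misspelled siRNA name was taken as siSbp2l replicate 1.

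From the FPKM table, limma 3.58.1 in R 4.3.3 was fitted on log2(FPKM + 1) with 1 mean per group, an intensity trend and robust empirical Bayes, two-sided. Day3 comparisons used the 12 Day3 libraries and 11650 genes, and Day0 comparisons all 14 libraries and 11874 genes, each with at least 1 FPKM in at least 2 libraries. All 8 members passed this filter. P-values were adjusted (Benjamini-Hochberg) over all genes tested. A fold change is on the log2(FPKM + 1) scale and understates the change of low genes. The scripts were tested on simulated data.

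Depth was recovered from whole-fragment steps in low FPKM values (88.8 to 92.5% of low values of single-transcript genes within 0.1 of a whole number, 78.7 to 82.4% over all genes). The deposited values are FPKM and not counts, so no count test was run. No replicate pair agreed within sampling noise. Replicate numbers were not used to pair the samples in the main fit, and a check of pairing is given with the alternatives. The members and lists were chosen with earlier results of these data known. Genes named beside the members were the 3 with the highest r and, per list, the up to 3 largest called rises and falls in either knockdown or in non-treated cells against Day0, of which some are not reported here. Other genes (Mobp, Itpr1, Itpr3, Neu2, Cysltr1, Gja1, Tubb3, Stmn2, Slc17a7, C1qb, Cldn5 and Cdh5) were named after their values were seen. Alternatives were other scalings, pseudocounts, filters, moderation, libraries in the fit, a replicate block, no fold threshold, each library left out, and controls without the non-treated group.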

Additional observations from a re-analysis of the deposited data

How the results depend on the processing

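Counts of members called are those of the 8 markers. Leaving out each library in turn kept the 8 called against Day0 in non-treated and mock cells and the 6 in each knockdown. With a pseudocount of 5 these became 7 and 7 (Bmp4 had 0.74 and 0.92), 4 in siSbp2l (Neu4 0.56, Itpr2 0.84) and 5 in siPdgfra (Neu4 0.95), and without a minimum fold change all were 8. Without a minimum fold change the counts of members became 8 for siSbp2l and 8 for siPdgfra against the mean of the controls, 5 between the knockdowns, 5 between the non-targeting siRNAs, 4 for both non-targeting siRNAs against no siRNA, and 5 (siSbp2l) and 6 (siPdgfra) against all 4 controls. For siPdgfra against the mean of the controls, median-ratio scaling, upper-quartile scaling and a pseudocount of 0.1 each gave 4 members. Between the knockdowns, median-ratio scaling and a pseudocount of 5 each gave 0, and between the non-targeting siRNAs a pseudocount of 5 gave 0. Against all 4 controls siSbp2l gave 3 with median-ratio scaling, 2 with upper-quartile scaling and 0 with a pseudocount of 5, and siPdgfra gave 0 with a pseudocount of 5. Both non-targeting siRNAs against no siRNA gave 1 with upper-quartile scaling. A pseudocount of 5 shrinks low genes such as Neu4 and Itpr2 by construction, and the cause of the other moves was not tested.

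Leaving out each library in turn gave 4 to 4 members for siSbp2l and 2 to 3 for siPdgfra against the mean of the controls, 1 to 1 between the knockdowns and between the non-targeting siRNAs, 0 to 2 for both non-targeting siRNAs against no siRNA (2 without non-treated replicate 1), and 1 to 2 (siSbp2l) and 1 to 1 (siPdgfra) against all 4 controls. The 2 in siSbp2l came without NC siRNA #2 replicate 1 or without siSbp2l replicate 2.

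Of the members' log2 differences under alternatives, 1606 kept direction and call, 44 gained the call, 9 lost it and 5 changed sign. Tns3 between the knockdowns ran from -0.08 to 0.07 when libraries were left out, and became 0.07 without siSbp2l replicate 1 and 0.06 without siPdgfra replicate 1. Bmp4 between the non-targeting siRNAs (-0.14 to 0.04 when libraries were left out) became 0.00 with median-ratio scaling and 0.04 without NC siRNA #2 replicate 1, and Bmp4 for both non-targeting siRNAs against no siRNA (-0.00 to 0.18) became -0.00 without non-treated replicate 2. None of these had been called.

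With the replicate number as a block the members called stayed at 4 for siSbp2l and 2 for siPdgfra, and the replicate block changed no other count of members. The same-numbered replicates of 21 pairs of groups had deviations with r from -0.38 to 0.47, over 0.1 in 3 pairs. The highest were Day0 with non-treated (0.47) and Day0 with siPdgfra (0.39). These values cannot show whether same-numbered replicates shared a preparation, and the main fit used no pairing. Bmp4 at Day0 rests on few fragments, and the shallowest library is NC siRNA #2 replicate 2.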
